A study of Mus musculus with 4 samples.

Results

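The genes of Wnt ligands, Frizzled receptors and their co-receptors were examined in RNA-seq of quiescent primary mouse embryonic fibroblasts (MEFs) with and without deletion of *Phf2*. They were chosen by name, as every gene symbol formed of Wnt or Fzd and a number (Wnt symbols also with a or b), with *Lrp5*, *Lrp6*, *Ror1*, *Ror2*, *Ryk*, *Porcn* and *Wls* added. This gave 36 of the 24391 gene symbols that were counted: 19 Wnt ligands, 10 Frizzleds, 2 Lrp co-receptors, 3 receptors of the Ror and Ryk families, and 2 genes for Wnt secretion. The MEFs came from E13.5 embryos. All 4 libraries are labelled *Phf2* flox/flox, ERCre/+, which the methods describe as the CreERT2 recombinase expressed from the Rosa26 locus. The 2 *Phf2* KO libraries are labelled as with tamoxifen and the 2 wild-type (WT) libraries as without tamoxifen. The protocol gives 0.5 µM 4-hydroxytamoxifen for 7 days in medium with 2% charcoal-treated serum. Loss of Phf2, activity of the recombinase and exposure to the drug came together in the same libraries and cannot be told apart. The 2 libraries of each group differ in sex (values below), so they came from different embryos, and p-values measure the spread between them. The sources do not state which embryo or culture each library came from.

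Wnt proteins are secreted, lipid-modified signals. Porcn attaches the lipid in the endoplasmic reticulum, and Wls carries the modified protein to the cell surface. A Wnt ligand binds a Frizzled receptor together with Lrp5 or Lrp6, which stabilises β-catenin and lets it act with TCF and LEF factors on target genes. Ligands such as Wnt5a and Wnt11 also signal without β-catenin, through Frizzleds, Ror1, Ror2 and Ryk, and act on cell polarity and movement. In embryonic mesenchyme, from which MEFs are grown, Wnt signals take part in patterning of the limbs, skin and skeleton. Several Wnt genes lie next to each other in the mouse genome.

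Of the 36 genes, 24 had a mean count of at least 20 over the 4 libraries and are called expressed here. These were 9 of 19 ligands, 8 of 10 Frizzleds, and all of *Lrp5*, *Lrp6*, *Ror1*, *Ror2*, *Ryk*, *Porcn* and *Wls*. The neighbouring genes *Wnt3a* and *Wnt9a* lay on opposite sides of this minimum. They lie head to head on chromosome 11, 16.2 kb apart, with *Wnt3a* on the reverse and *Wnt9a* on the forward strand (NCBIM37, mm9). *Wnt9a* was counted 357 and 491 times in WT against 413 and 467 times in *Phf2* KO MEFs, and *Wnt3a* 0 and 1 times in WT against 1 and 0 times in *Phf2* KO MEFs. The 250 bases before the RefSeq start of both genes are shown with those of *Wnt16*, the ligand with the highest level per length, to compare how dense they are in CG dinucleotides (C followed by G, printed in capitals), a feature of many promoters of developmental genes. The sequences are those of RefSeq on GRCm38.p6, matched to mm9 and read 5′ to 3′ along each gene's strand. The windows are chr6:22237977-22238226 on the forward strand for *Wnt16*, chr11:59104254-59104503 on the reverse strand for *Wnt3a* and chr11:59120182-59120431 on the forward strand for *Wnt9a*.
Wnt16: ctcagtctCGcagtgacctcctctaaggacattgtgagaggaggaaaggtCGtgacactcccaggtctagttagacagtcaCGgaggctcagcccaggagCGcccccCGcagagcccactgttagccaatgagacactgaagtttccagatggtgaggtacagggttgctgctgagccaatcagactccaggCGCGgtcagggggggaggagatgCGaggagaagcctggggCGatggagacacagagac
Wnt3a: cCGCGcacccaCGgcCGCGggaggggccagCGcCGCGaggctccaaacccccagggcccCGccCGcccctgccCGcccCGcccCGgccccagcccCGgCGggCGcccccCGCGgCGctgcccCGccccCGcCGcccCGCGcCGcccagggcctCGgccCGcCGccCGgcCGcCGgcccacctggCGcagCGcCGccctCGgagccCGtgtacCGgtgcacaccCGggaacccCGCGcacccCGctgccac
Wnt9a: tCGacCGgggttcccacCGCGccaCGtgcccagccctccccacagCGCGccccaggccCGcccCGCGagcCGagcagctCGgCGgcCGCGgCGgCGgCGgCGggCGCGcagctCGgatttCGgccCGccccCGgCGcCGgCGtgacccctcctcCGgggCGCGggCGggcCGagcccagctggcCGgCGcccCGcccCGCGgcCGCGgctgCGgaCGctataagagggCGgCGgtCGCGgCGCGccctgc

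The *Wnt3a* window holds 41 CG dinucleotides and that of *Wnt9a* 48, more than 98.9% and 99.8% of the 32851 windows in the RefSeq table. The *Wnt16* window holds 9, more than 59.7% of them. The table had windows for 25 of the 36 genes, 28 in all. The median was 20 CG dinucleotides over 19 windows of 16 expressed genes, with a range from 4 to 48, and 28 over 9 windows of 9 genes that were not expressed, with a range from 5 to 42. The median of all windows was 6, and 92.1% of them held at least 1 CG. The windows of expressed and unexpressed genes thus overlapped over nearly their whole range.

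The libraries held between 21094743 and 26094268 counts, so that the floor of detection, set at 3 counts, corresponded to 0.116 to 0.145 CPM (counts scaled by TMM to a common library size). This floor covers counting error alone. *Phf2* was counted 3244 and 3680 times in WT against 1454 and 2158 times in *Phf2* KO MEFs, 138.2 ± 5.11 and 80.0 ± 13.9 CPM (SD, n = 2), with counts that cover the whole gene and not the floxed exons alone. Fibroblast markers, among them *Col1a1* and *Pdgfra*, summed to between 59049 and 70984 CPM, endothelial markers to between 9.53 and 22.1 CPM, and epithelial markers to between 0.531 and 1.5 CPM. Macrophage markers summed to 3519 and 766.1 CPM in WT replicates 1 and 2 and to 4021 and 1215 CPM in *Phf2* KO replicates 1 and 2. *Xist* was counted 10042 and 8336 times in the 2 libraries numbered 1 and 3 and 12 times in those numbered 2, whereas the Y-linked *Ddx3y* was counted 6 and 10 times in the former and 1271 and 1295 times in the latter. The replicate numbers therefore differed in sex and in macrophage markers in both groups, and both groups held 1 library of each kind.

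The expressed ligands were led by *Wnt16* (chromosome 6, 22238227 to 22250409, forward strand, 5 exons merged over transcripts), whose product signals in skeletal and haematopoietic development. It was counted 1364 and 1886 times in WT against 1526 and 1827 times in *Phf2* KO MEFs. Its level was 9.06 and 11.6 RPKM in WT against 11.8 and 12.2 RPKM in *Phf2* KO MEFs (CPM per kb of exon, the scale used here to compare levels between genes). This was between 30.2% and 34.8% of the summed RPKM of the expressed ligands in a library. *Wnt5a*, a ligand of Ror2 and a regulator of limb outgrowth, had counts of 1007 and 1308 in WT against 957 and 1174 in *Phf2* KO, or 5.34, 6.44, 5.90 and 6.24 RPKM. *Wnt9a*, which acts in joint formation, was at 4.45 and 5.68 RPKM in WT against 5.99 and 5.84 in *Phf2* KO. *Wnt11*, a ligand of the polarity branch, was at 5.25 and 6.62 RPKM in WT against 4.08 and 5.15 in *Phf2* KO. *Wnt5a*, *Wnt9a* and *Wnt11* overlapped in level, and all libraries had *Wnt16* above them.

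Below these ligands, *Wnt2b* had a mean of 2.49 RPKM and *Wnt4*, which acts in kidney and gonad development, 1.54 RPKM. *Wnt10b*, *Wnt5b* and *Wnt2* lay near the minimum, at 0.745, 0.631 and 0.580 RPKM, with overlapping ranges. *Wnt10b* is known as an inhibitor of fat cell formation, and *Wnt5b* is the close relative of *Wnt5a*. Their counts were 28, 48, 42 and 46 for *Wnt10b*, 32, 64, 25 and 39 for *Wnt5b*, and 43, 41, 18 and 24 for *Wnt2*, in the order of WT replicates 1 and 2 and *Phf2* KO replicates 1 and 2.

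Just inside the minimum was *Wnt2*, with a mean count of 31.5, and just outside it *Wnt6*, with 9.25 (counts of 2 and 13 in WT against 8 and 14 in *Phf2* KO). The other ligands that were not expressed were *Wnt1*, *Wnt3*, *Wnt3a*, *Wnt7a*, *Wnt7b*, *Wnt8a*, *Wnt8b*, *Wnt9b* and *Wnt10a*. *Wnt3* was counted 2 and 7 times in WT against 3 and 4 times in *Phf2* KO, and *Wnt8b* between 0 and 2 times. *Wnt3a*, *Wnt7a*, *Wnt7b*, *Wnt8a* and *Wnt10a* had counts of 0 or 1. *Wnt1* and *Wnt9b* had 0 counts in all libraries, which allows up to 3 counts in each. Among neighbouring ligands, *Wnt10b* and *Wnt1* lie 11.7 kb apart on chromosome 15 in opposite directions, with mean counts of 41.0 and 0. *Wnt3* and *Wnt9b*, 24.3 kb apart on chromosome 11, had mean counts of 4.0 and 0, and *Wnt6* and *Wnt10a*, 6.20 kb apart on chromosome 1, of 9.25 and 0.25. Of the 4 pairs of neighbours, *Wnt3a* and *Wnt9a* included, 2 had 1 expressed gene and 2 had none.

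Both genes for Wnt secretion were expressed. *Wls*, counted between 6068 and 7364 times, had the highest level of all 24 genes, 84.4 and 85.9 RPKM in WT against 88.6 and 89.7 RPKM in *Phf2* KO MEFs, and hardly varied within a group. *Porcn*, on chromosome X, had 320 and 392 counts in WT against 270 and 371 in *Phf2* KO and was at 4.43 and 5.04 RPKM in WT against 4.34 and 5.14 RPKM in *Phf2* KO MEFs. Its libraries overlapped between the groups.

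Among the receptors, *Fzd2* (chromosome 11, 102465745 to 102469372, forward strand, 1 exon) stood well above the other Frizzleds. It was counted 5915 and 7741 times in WT against 5637 and 7063 times in *Phf2* KO MEFs, or 67.6, 82.2, 75.0 and 81.0 RPKM, and took between 42.5% and 45.6% of the summed RPKM of the 8 expressed Frizzleds. *Fzd7* (chromosome 1, 59538991 to 59543791, forward strand, 1 exon) and *Fzd1* (chromosome 5, 4753842 to 4758216, reverse strand, 1 exon), its closest relatives in sequence, followed with means of 27.8 and 24.9 RPKM and overlapping ranges. In WT replicates 1 and 2 and *Phf2* KO replicates 1 and 2, *Fzd7* was counted 2823, 3792, 2681 and 3415 times and *Fzd1* 2258, 3249, 2030 and 2864 times. The 3 genes together took between 73.1% and 75.5% of the Frizzled RPKM, so this composition varied little between libraries and groups.

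*Fzd8* had a mean of 19.3 RPKM and *Fzd4*, the receptor of norrin in blood vessels of the retina, of 12.5 RPKM. *Fzd6* and *Fzd3*, which act in the polarity of hair and axons, were at 6.90 and 1.11 RPKM, and *Fzd5* was at 5.64 RPKM. *Fzd6* was counted 606 and 804 times in WT against 565 and 702 times in *Phf2* KO, and *Fzd5* 752 and 1097 times against 749 and 1112 times. In both genes the groups overlapped. *Fzd8*, which overlapped *Fzd1* but not *Fzd7* in level, was counted 1244 and 2000 times in WT against 1173 and 1751 times in *Phf2* KO. *Fzd3* was counted 117 and 112 times in WT against 98 and 118 times in *Phf2* KO. *Fzd9* and *Fzd10* were not expressed, with counts from 5 to 10 and from 2 to 7. The symbol *Fzd10* has 2 entries in the annotation that share exons, so its count is uncertain.

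The co-receptor genes were among the most abundant. *Lrp5*, counted 7660 and 8998 times in WT against 6975 and 7533 times in *Phf2* KO, was at 61.4 and 67.0 RPKM in WT against 65.1 and 60.6 in *Phf2* KO MEFs, and *Lrp6* at 24.4 and 23.0 in WT against 19.4 and 19.5 in *Phf2* KO MEFs. *Lrp5* was thus above its relative *Lrp6* in each library. *Ryk*, an atypical receptor kinase for Wnt ligands, was counted 4092 and 4791 times in WT against 3599 and 4096 times in *Phf2* KO, with a mean of 53.5 RPKM. *Ror2* was counted 925 and 1156 times in WT against 802 and 753 times in *Phf2* KO, and *Ror1* 285, 409, 227 and 351 times in the same order. Their means were 9.01 and 2.31 RPKM, and the ranges of *Ryk*, *Ror2* and *Ror1* did not overlap.

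**Figure D1:**
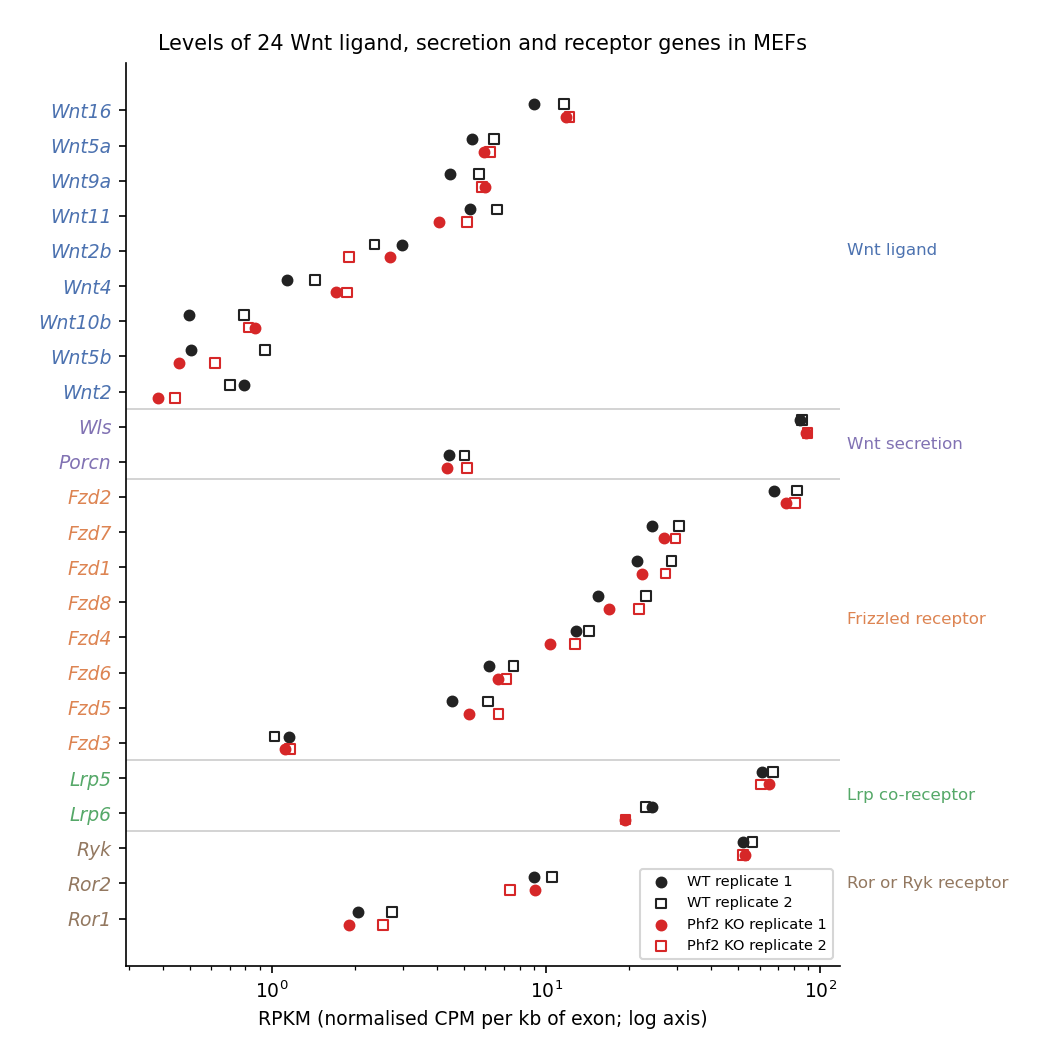
RPKM (log axis) of the 24 expressed genes in each library, grouped by role and ordered by level within a role, with circles for replicate 1, squares for replicate 2, black for WT and red for *Phf2* KO. *Wls* and *Fzd2* lie at the upper end, at means of 87.2 and 76.5 RPKM, and *Wnt16* leads the ligands at 11.2 RPKM.

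In 11 of the 24 expressed genes the log2 fold change of *Phf2* KO against WT was within 0.1 of 0, and in 23 within 0.5. *Fzd2* was at 104.1%, *Wls* at 104.7% and *Wnt16* at 115.8% of the WT mean in *Phf2* KO MEFs. Farther from it were *Lrp6* at 82.0%, *Wnt11* at 77.8%, *Wnt5b* at 74.6% and *Wnt2* at 55.5%, and *Wnt9a* at 116.7%, *Wnt10b* at 130.9% and *Wnt4* at 139.6%. Whether the genes changed with deletion of *Phf2* was tested in the fit of all 13668 genes that passed the filter on low counts, 25 of them from this group (the 24 expressed genes and *Wnt6*). None of the 25 was called by edgeR's quasi-likelihood test at an adjusted p-value under 0.1 (adjusted p = 0.999 for each, with Benjamini-Hochberg adjustment), against 0.00732% of all genes tested. This test did not call the deleted gene *Phf2* either (log2 fold change -0.79, unadjusted p = 0.0033, adjusted p = 0.999). The Wald test of DESeq2 did call *Phf2* (adjusted p = 0.0032). An adjusted p-value of 0.999 in this fit therefore does not show that a gene was unchanged. At an unadjusted p-value under 0.05, 2 of the 25 (8%) were lower in *Phf2* KO MEFs, *Lrp6* and *Wnt2*, against 2.67% of all genes, and 0 were higher, against 1.54%. DESeq2, edgeR's likelihood ratio test and limma-voom called 0 of these genes as well, with 1, 1 and 2 lower and 0 higher at an unadjusted p-value under 0.05. None of these fits takes the replicate number into account. With that number as a block, edgeR's quasi-likelihood test called 7 of the 25 (28%), 5 lower and 2 higher, against 11% of all genes. DESeq2 with the block called 1 of the 16 to which it gave an adjusted p-value, against 302 of 7550 over all genes. No source states that the numbers pair the libraries, and the edgeR block leaves 1 degree of freedom. Of the 25 log2 fold changes 14 were positive and 11 negative, with a median of 0.0086, against 0.0054 over all genes.

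*Wnt2* (chromosome 6, 17938940 to 17980585, reverse strand, 5 merged exons) encodes a ligand of the β-catenin branch known for its part in lung and placenta. Its level was 1.78 and 1.58 CPM in WT against 0.869 and 0.998 CPM in *Phf2* KO MEFs, with both *Phf2* KO libraries below both WT libraries. The mean was 1.68 ± 0.144 CPM in WT against 0.934 ± 0.0917 CPM in *Phf2* KO (SD, n = 2), 55.5% of the WT level. The log2 fold change was -0.84 (standard error 0.287, 95% interval from -1.60 to -0.084). Its unadjusted p-value was 0.0361 and its adjusted p-value 0.999 by edgeR's quasi-likelihood test. These values rest on 18 to 43 counts a library.

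*Lrp6* (chromosome 6, 134396494 to 134516983, reverse strand, 23 merged exons) was counted 5772 and 5861 times in WT against 3952 and 4593 times in *Phf2* KO MEFs. This was 239.5 and 225.9 CPM in WT against 190.7 and 191.1 CPM in *Phf2* KO, so that the groups did not overlap. The mean was 232.7 ± 9.62 CPM in WT against 190.9 ± 0.231 CPM in *Phf2* KO (SD, n = 2), 82.0% of the WT level. The log2 fold change was -0.29 (standard error 0.0837, 95% interval from -0.51 to -0.064), with an unadjusted p-value of 0.0219 and an adjusted p-value of 0.999 by edgeR's quasi-likelihood test. For *Lrp5* the log2 fold change was -0.032, with an interval from -0.29 to 0.23.

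The most abundant ligands had small fold changes with intervals that include 0. For *Wnt16*, 56.6 and 72.7 CPM in WT against 73.6 and 76.0 CPM in *Phf2* KO, the log2 fold change was 0.21 (standard error 0.141, interval from -0.16 to 0.59). Of the distinct stretches of 50 bases in its protein-coding transcripts, 5 (0.143%) also occur in protein-coding transcripts of other genes. *Wnt5a* (chromosome 14, 29317936 to 29340633, forward strand) was at 46.1 ± 6.10 CPM in WT against 47.5 ± 1.87 CPM in *Phf2* KO (SD, n = 2), a log2 fold change of 0.044 (standard error 0.125, interval from -0.29 to 0.38). *Wnt9a* (chromosome 11, 59120430 to 59147054, forward strand) was at 16.9 ± 2.91 and 19.7 ± 0.358 CPM (SD, n = 2), a log2 fold change of 0.22 (standard error 0.158, interval from -0.20 to 0.64). *Wnt16* and *Wnt9a* had both *Phf2* KO libraries above both WT libraries, and *Wnt5a* overlapped.

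The 3 leading Frizzleds were closer still between the groups. *Fzd2* was at 271.9 ± 37.4 CPM in WT against 282.9 ± 15.4 CPM in *Phf2* KO MEFs (SD, n = 2), a log2 fold change of 0.058 (standard error 0.129, interval from -0.28 to 0.40). *Fzd7* was at 131.6 ± 20.5 and 135.7 ± 8.96 CPM (SD, n = 2), a log2 fold change of 0.044 (standard error 0.137, interval from -0.32 to 0.41), and *Fzd1* at 109.4 ± 22.3 and 108.6 ± 15.0 CPM (SD, n = 2), a log2 fold change of -0.012 (standard error 0.182, interval from -0.49 to 0.47). In all 3 the groups overlapped, and the difference between the groups was smaller than the SD within them.

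Of the other genes, *Wnt4* had the highest log2 fold change among those expressed, 0.48 (interval from -0.036 to 1.00), from 115 and 156 counts in WT against 149 and 189 in *Phf2* KO. In *Wnt4*, 2.48% of the distinct 50-base stretches of its protein-coding transcripts occur in those of other genes. *Wnt11*, counted 460 and 624 times in WT against 307 and 450 times in *Phf2* KO, had -0.36 (interval from -0.86 to 0.13). Of its exon length, 10.0% lies opposite a pseudogene, whose reads cannot be told apart from its own if strand was ignored in counting. The sources give the mapping as reverse stranded but do not state whether the counting used strand. *Wnt2b*, with 257 and 219 counts in WT against 200 and 164 in *Phf2* KO, had -0.21 and *Wnt5b* -0.42, and both overlapped between the groups. The log2 fold change was -0.24 for *Fzd4* (1136 and 1371 counts in WT, 788 and 1127 in *Phf2* KO) and -0.24 for *Ror2*, and those of the other expressed Frizzleds lay between -0.012 and 0.17. *Wls* had 0.066 (interval from -0.15 to 0.28) and *Porcn* 0.00445 (interval from -0.41 to 0.42).

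Both *Phf2* KO libraries were below both WT libraries in 4 of the 25 genes (16%), *Fzd4*, *Lrp6*, *Wnt11* and *Wnt2*, against 18% of all genes tested. Both were above in 5 (20%), *Wls*, *Wnt10b*, *Wnt16*, *Wnt4* and *Wnt9a*, against 15.5% of all genes. These shares are near those of all genes. The size of change that the data leave room for differed between genes. The 95% interval lay within 1 log2 unit of 0 in 21 of the 24 expressed genes and within 0.5 log2 units in 9. The exceptions to the former were *Wnt2*, *Wnt5b* and *Wnt10b*, which had the fewest counts.

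**Figure D2:**
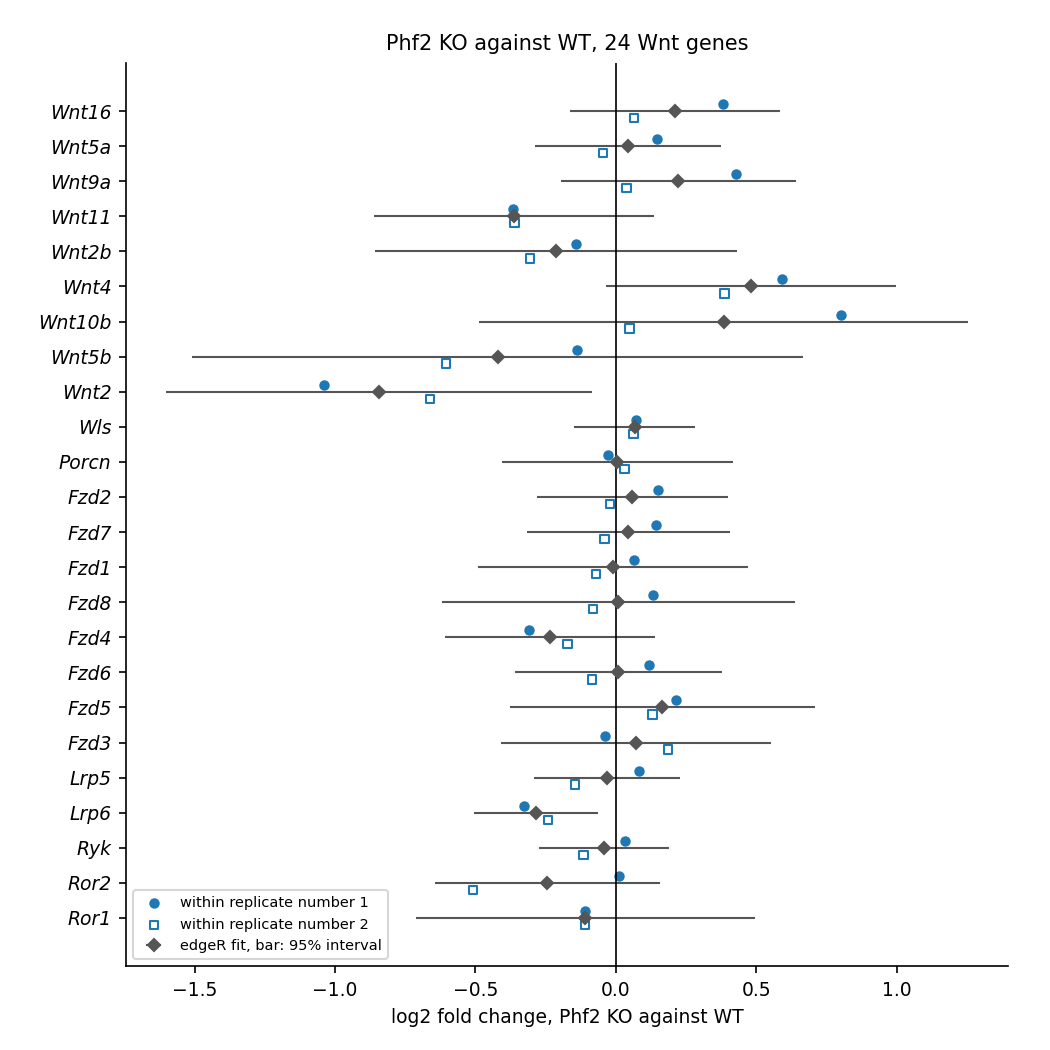
Log2 fold change of *Phf2* KO against WT for the 24 expressed genes, as the edgeR estimate (diamond) with its 95% interval (bar) and as the log2 ratio of the libraries numbered 1 (circles) and 2 (open squares). The intervals of *Wnt2* and *Lrp6* lie below 0 and those of the other 22 include it.

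Since the libraries numbered 1 and 2 differed in both groups, *Phf2* KO was also compared with WT within each number. The ratios had the same sign in both numbers in 13 of the 24 expressed genes, 7 lower and 6 higher in *Phf2* KO, and opposite signs in 11. For *Lrp6* the log2 ratio was -0.33 within number 1 and -0.24 within number 2, for *Wnt2* -1.04 and -0.66, and for *Wnt11* -0.37 and -0.36. For *Wnt4* it was 0.59 and 0.39. The ratio of *Wnt16* was 0.38 within number 1 and 0.064 within number 2, and that of *Wnt9a* 0.43 and 0.038. *Ror2* had 0.012 within number 1 and -0.51 within number 2, so its lower mean in *Phf2* KO came from the libraries numbered 2. *Fzd2*, *Fzd7*, *Fzd1* and *Wnt5a* had a positive ratio within number 1 and a negative one within number 2, each of at most 0.15 in size.

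The difference between the replicate numbers was the larger one for many of these genes. It was larger in 15 of the 24 expressed genes, taking the mean size of the log2 ratio of replicate 2 to replicate 1 in both groups against the size of the log2 fold change. Ratios of opposite sign do not cancel in this mean, as they can in the fold change, which favours the replicate difference. The share over all genes was not computed. In both groups 15 of the 24 (62.5%) were higher in replicate 2, against 35.9% of the 12720 genes that reach the same minimum. Only 1 (4.17%), *Wnt2b*, was lower in replicate 2 in both groups, against 33% of these genes. Of the 8 Frizzleds 7 were higher in replicate 2 in both groups, *Fzd3* being the exception in WT. The log2 ratio of replicate 2 to replicate 1 was 0.58 in WT against 0.36 in *Phf2* KO for *Fzd8*, 0.42 and 0.28 for *Fzd1*, 0.44 and 0.36 for *Fzd5* and 0.28 and 0.11 for *Fzd2*. For *Ror1* it was 0.41 in both groups. *Wls* and *Lrp6* hardly differed, with 0.025 and 0.017 for *Wls* and -0.084 and 0.00247 for *Lrp6*.

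Macrophage markers moved the other way, with 14 of 14 tested lower in replicate 2 in both groups, and sex differed between the numbers too. With 1 library of each number in a group, these differences have no replicates within a number and were not tested. In RNA from whole cultures, fewer cells of a type and less RNA per cell cannot be told apart, and the part of macrophage content or sex in the levels of the Wnt genes was not tested.

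**Figure D3:**
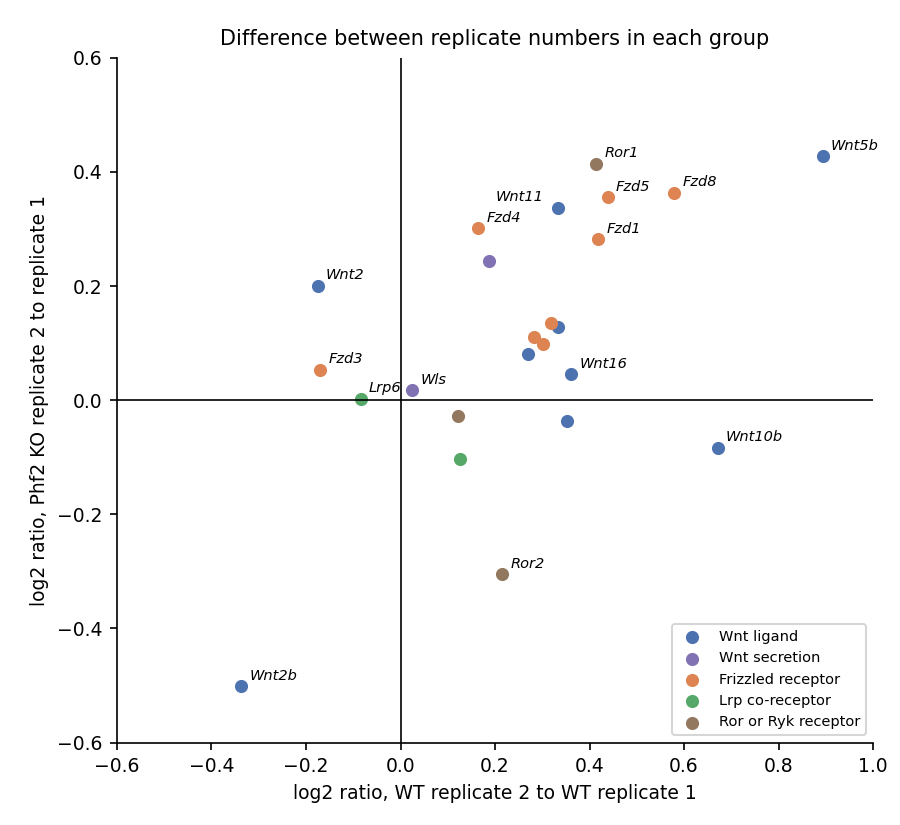
Log2 ratio of replicate 2 to replicate 1 in WT (horizontal axis) and in *Phf2* KO (vertical axis) for the 24 expressed genes, coloured by role. To the upper right of the origin lie 15 genes, 7 of the 8 Frizzleds among them, and to the lower left *Wnt2b* alone.

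Other genes of the pathway were examined in 5 lists with 67 genes, 57 of them tested. Of these, 27 had a positive and 30 a negative log2 fold change, with a median of -0.013, and 1 was called. This was the secreted antagonist *Dkk2*, which binds Lrp5 and Lrp6, counted 977 and 1137 times in WT against 131 and 162 times in *Phf2* KO MEFs. This amounts to a log2 fold change of -2.69 (standard error 0.115), with an adjusted p-value of 0.0843 by edgeR's quasi-likelihood test, and limma-voom did not call it (adjusted p = 0.183). Leaving out any library moved it to between -2.74 and -2.65, and none of these 4 fits called it. At an unadjusted p-value under 0.05, 5 of the 57 were lower, *Dkk2* included, against 2.67% of all genes tested, and 0 higher, against 1.54%. The lists were chosen with earlier results of these data known, so these counts are a description.

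The 4 further genes were *Lgr6* and *Lgr5*, receptors of R-spondins that strengthen Wnt signals, *Apcdd1*, an inhibitor at the cell surface, and *Frzb*, a secreted relative of the Frizzleds that binds Wnt ligands. *Lgr6* was counted 198 and 143 times in WT against 28 and 10 times in *Phf2* KO, and *Lgr5* 2614 and 1472 times in WT against 962 and 588 times in *Phf2* KO. Their log2 fold changes were -2.97 and -1.22. That of *Lgr6* moved to -4.03 when *Phf2* KO replicate 1 was left out and to -2.34 when *Phf2* KO replicate 2 was. That of *Lgr5* moved to -1.76 when *Phf2* KO replicate 1 was left out and to -0.67 when WT replicate 1 was. Such a fit also takes in the difference between the replicate numbers. Within numbers 1 and 2 the log2 ratio of *Phf2* KO to WT was -1.22 and -1.21 for *Lgr5* and -2.60 and -3.73 for *Lgr6*. *Apcdd1* was counted 427, 587, 241 and 299 times (log2 fold change of -0.74) and *Frzb* 105, 132, 62 and 80 times (-0.58). In all 5 genes both *Phf2* KO libraries were below both WT libraries, against 18% of all genes tested. The 5 were named for their unadjusted p-values, so this separation is no further evidence. None but *Dkk2* passed adjustment over all genes without the replicate block (adjusted p = 0.999 by edgeR's quasi-likelihood test). DESeq2 and edgeR's likelihood ratio test called *Lgr6* as well as *Dkk2* (adjusted p = 0.00233 and 0.00479 for *Lgr6*), whereas limma-voom and the other scalings and filters did not call *Lgr6* (adjusted p from 0.780 to 0.999). With the replicate number as a block, edgeR's quasi-likelihood test called all 5 genes, against 11% of all genes tested. Pairing by number is not stated in the sources, and the block leaves 1 degree of freedom. The adjusted p-value in that edgeR fit was 8.38e-39 for *Lgr5*, 6.39e-31 for *Lgr6*, 1.18e-07 for *Apcdd1* and 0.0497 for *Frzb*. DESeq2 with the block called *Dkk2* and *Lgr5* (adjusted p = 4.29e-43 and 6.81e-18). It gave no adjusted p-value to *Lgr6*, *Apcdd1* and *Frzb*.

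The lists differed in where their values lay. The median log2 fold change was -0.47 over 10 tested feedback targets of the pathway, against 0.0054 over all genes. Of the 10 targets 8 were negative, against 6665 of all 13668 genes. It was 0.051 over 7 secreted antagonists, -0.051 over 13 genes of cytoplasmic transduction, 0.016 over 12 nuclear factors and 0.046 over 15 genes of planar cell polarity. Of the 10 feedback targets, 3 (*Lgr5*, *Lgr6* and *Apcdd1*) were lower at an unadjusted p-value under 0.05, against 2.67% of all genes. As the lists were chosen with earlier results of these data known, these values describe them and test nothing. Among the ligands, Frizzleds and co-receptors the medians were 0.044 over 9 expressed ligands, 0.026 over 8 Frizzleds and -0.16 over both Lrp genes.

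**Figure D4:**
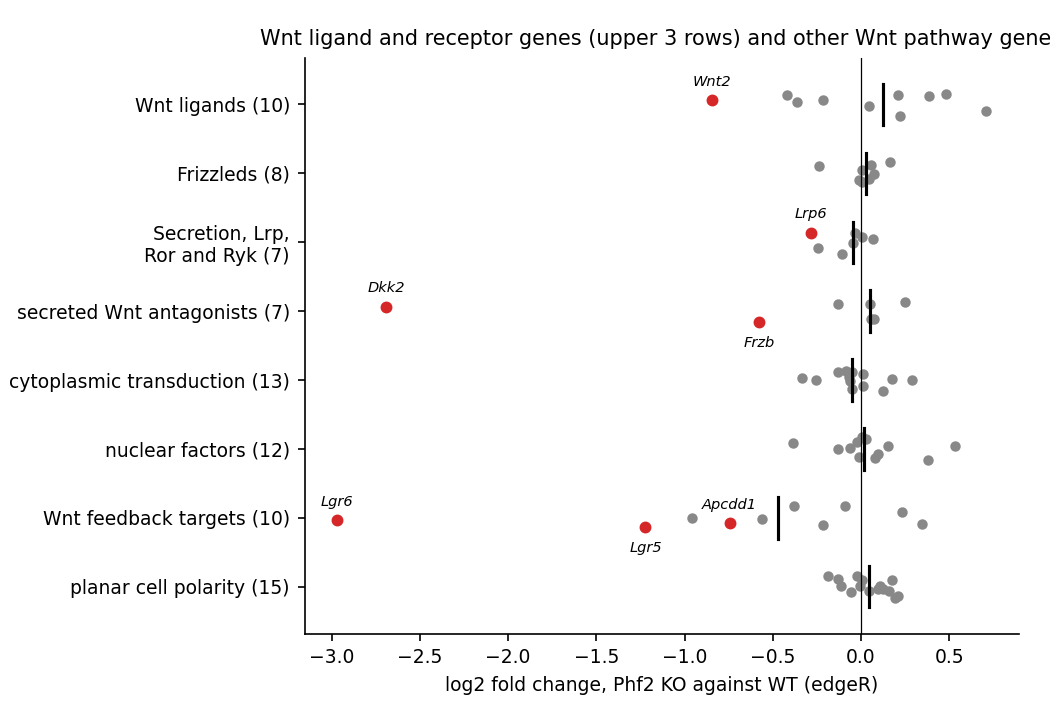
Log2 fold change of *Phf2* KO against WT (edgeR) for each tested gene, in rows for the ligands, the Frizzleds, the other secretion and receptor genes and the 5 further lists, with the number of genes in parentheses and the median as a black bar. Red points are genes with an unadjusted p-value under 0.05. The ligands and receptors lie between -0.84 and 0.71, *Dkk2* and *Lgr6* beyond -2.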

How the data were processed

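RNA-seq of 4 libraries of quiescent primary MEFs (2 WT, 2 *Phf2* KO) was analysed. The authors trimmed single reads of 50 bases with Trim Galore, used bowtie2 to remove ribosomal RNA, mapped reads by STAR (reverse stranded) against mm9 and used featureCounts to count reads per gene. The deposited values are raw counts for 24391 gene symbols. Versions and the gene annotation are not given in the sources used here. A deposited table of the authors' DESeq2 fold changes and p-values was not used.

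Counts were fitted in R 4.3.3 with edgeR 4.0.16 (TMM scaling, glmQLFTest), after filterByExpr. Adjustment was by Benjamini-Hochberg over 13668 genes, with calls at an adjusted p-value under 0.1. The depth was 21094743 to 26094268 counts a library. RPKM is the TMM-scaled CPM per kb of exon of the NCBIM37 annotation. Alternatives were DESeq2 1.42.0, limma 3.58.1 (voom), the likelihood ratio test, RLE or library size alone, other filters, a threshold of 0.05, a replicate block and each library left out. The fits were tested on simulated counts with known fold changes. The simulation held no difference between replicate numbers and less dispersion than the main fit, so it does not give the power here. Tables and figures used Python 3.11.15, pandas 2.3.3 and Matplotlib 3.10.9.

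The genes and lists were chosen with earlier results of these data known. Every gene of the group with a mean count of at least 20 is named with its counts, the others by the range of their counts. Full statistics are given for those with an unadjusted p-value under 0.05 and for the 3 ligands and 3 Frizzleds with the highest RPKM. Of the other lists, genes with an unadjusted p-value under 0.05 are named. *Wnt4*, *Wnt11*, *Ror2* and the genes for which values within a replicate number are given were singled out after their values were seen. Positions are on mm9, and promoter sequences are RefSeq's (GRCm38.p6), matched exactly to mm9. The windows of *Lrp6*, *Fzd2* and *Wnt5a* are not analysed here.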

Additional observations from a re-analysis of the deposited data

How the results depend on the processing

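The count of 0 Wnt ligand, Frizzled and co-receptor genes called was the same with DESeq2, the likelihood ratio test of edgeR, limma-voom, RLE, library size alone, both other filters, the threshold of 0.05 and each library left out (0 to 0). It changed with the replicate number as a block, which called 7 of 25 (28%) by edgeR, *Fzd4*, *Lrp6*, *Ror2*, *Wnt11* and *Wnt2* lower and *Wnt16* and *Wnt4* higher, against 1500 of 13668 genes (11%; 789 higher, 711 lower), and 1 (*Lrp6*) of 16 by DESeq2, against 302 of the 7550 genes to which DESeq2 gave an adjusted p-value. No source states that the numbers pair the libraries. The differences between replicates in WT and in *Phf2* KO had a Pearson's r of 0.854 across 11556 genes (genes are not replicates). With the block 1 degree of freedom is left, and the common dispersion is 0.00363, against 0.0451 without the block. The edgeR block called *Ror2* lower, although its log2 ratio was 0.012 within number 1 and -0.51 within number 2.

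Over all genes, 64 were called by DESeq2, 41 by the likelihood ratio test, 0 by limma-voom, 0 at the threshold of 0.05 and 0 to 0 in the fits without 1 library, against 1. Of the other Wnt pathway genes, DESeq2 and the likelihood ratio test called 2 each (*Dkk2* and *Lgr6*), limma-voom 0, none (0) passed at 0.05 or in the fits without 1 library (0 to 0), and the block called 12 of 57 by edgeR and 3 of 40 by DESeq2, against 1 of 57. For DESeq2, limma-voom, the likelihood ratio test and the block the cause was not tested. Of the genes, 24 were expressed at a minimum of 10 or of 1 CPM and with each library left out, and 21 at a minimum of 50.

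The sign of small fold changes could change when a library was left out. Each such fit leaves 1 group with a single replicate number. The difference between the numbers then enters the fold change and cannot be told apart from the effect of that library. Without 1 library, the log2 fold change ran from -0.19 to 0.20 for *Fzd1*, -0.064 to 0.19 for *Fzd2*, -0.026 to 0.17 for *Fzd3*, -0.025 to 0.39 for *Fzd5*, -0.12 to 0.15 for *Fzd6*, -0.095 to 0.20 for *Fzd7*, -0.24 to 0.31 for *Fzd8*, -0.086 to 0.018 for *Lrp5*, -0.12 to 0.12 for *Porcn*, -0.33 to 0.097 for *Ror1*, -0.090 to 0.00338 for *Ryk*, -0.49 to 0.013 for *Wnt2b*, -0.073 to 0.17 for *Wnt5a*, -0.78 to 0.079 for *Wnt5b* and -0.027 to 2.46 for *Wnt6*. It kept its sign for *Lrp6* (-0.34 to -0.23), *Wnt2* (-0.95 to -0.74), *Wnt4* (0.34 to 0.64) and *Wls* (0.056 to 0.074), and also, over wider ranges relative to its size, for *Wnt16* (0.054 to 0.39), *Wnt9a* (0.068 to 0.39), *Wnt10b* (0.10 to 0.74), *Wnt11* (-0.54 to -0.20), *Fzd4* (-0.39 to -0.094) and *Ror2* (-0.41 to -0.10). It was also reversed for *Fzd1* with the block in DESeq2 (0.00134) and, with library size alone, for *Fzd6* (-0.000446) and *Porcn* (-0.00433). A library left alone in its group was assumed to vary like the other group. With 18 to 64 counts a library, *Wnt2*, *Wnt5b* and *Wnt10b* are limited by depth.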
